A study of Mus musculus with 40 samples.

Results

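The 7 genes described here belong to neutrophil granules, to the neutrophil surface and to neutrophil maturation, and were followed in mouse mammary tumors: S100a8, S100a9, Retnlg, Mmp8, Cd177, Cxcr2 and Ifitm6. All 7 are among the 14318 genes of the deposited expression table, found there by their gene symbol. The set was selected on expression values of these same tumors, with results across the 8 groups known and no stated threshold or comparison, so its values describe these tumors and do not stand as independent support for a pattern. The table holds 39 primary tumors, 1 column each, in 8 groups formed by 2 tumor models and 4 treatments. Wild-type female BALB/c mice, as lactating mothers, carried tumors grown from either 4T1 or 66cl4 cells, which are mouse mammary carcinoma lines that model triple-negative breast cancer and here also expressed luciferase, after injection into the milk ducts. Mice of each model stayed untreated or received intraperitoneal chitin particles (1 mg per mouse), an antibody to the immune checkpoint receptor PD-1 (clone RMP1-14, 200 µg per mouse), or chitin + anti-PD-1, and tumors were taken at week 5 after inoculation. Each group had 5 tumors except untreated 4T1, which had 4 in the table, and its tumor 3 was not analysed here. Whole tumor RNA was sequenced, so tumor cells, stroma and blood contribute together, and a lower number of cells of a type and less RNA per cell cannot be told apart. Each tumor bore 1 of 2 cell lines, so a difference between models is a difference between those lines as grown here.

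Neutrophils are short-lived white cells that mature in the bone marrow under G-CSF, filling first azurophil, then specific and gelatinase granules with proteases and antimicrobial proteins before they leave for the blood. Granule protein genes are read mainly during maturation in the marrow, whereas mature cells in blood and tissue carry the transcripts of calprotectin, of resistin-like proteins and of the chemokine receptor CXCR2. In tumors, neutrophils and their immature relatives can restrain T cells, and the 4T1 line is known for raising their numbers in blood.

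S100a8 and S100a9 encode the 2 subunits of calprotectin, a calcium-binding protein that fills the neutrophil cytosol and is also made by monocytes and by stressed squamous epithelium. Both genes lie side by side on chromosome 3 of mm10 (S100a8 at chr3:90669071-90670034 and S100a9 at chr3:90692630-90695721). Retnlg lies at chr16:48872608-48874498, Mmp8 at chr9:7558429-7568486, Cd177 at chr7:24743983-24760334, Cxcr2 at chr1:74153994-74161246 and Ifitm6 at chr7:141015812-141016892. The 250 bases upstream of the annotated start are shown for this pair because their levels moved together most tightly, for Cxcr2 as the receptor gene, and for Ifitm6 because it alone was lower in 4T1 tumors. Capitals mark matches, on either strand, to the C/EBP pattern TTNNGNAA or the PU.1 pattern GAGGAA, the letters of binding motifs of transcription factors of granulocyte maturation, read from RefSeq (GRCm38.p6), 5′ to 3′ along the gene's strand. The windows are chr3:90668821-90669070, plus strand for S100a8, chr3:90695722-90695971, minus strand for S100a9, chr1:74153744-74153993, plus strand for Cxcr2 and chr7:141016893-141017142, minus strand for Ifitm6.
S100a8: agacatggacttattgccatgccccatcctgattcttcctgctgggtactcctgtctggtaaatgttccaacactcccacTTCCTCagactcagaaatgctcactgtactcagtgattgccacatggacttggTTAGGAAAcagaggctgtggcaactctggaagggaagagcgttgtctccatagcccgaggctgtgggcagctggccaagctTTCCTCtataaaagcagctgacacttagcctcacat
S100a9: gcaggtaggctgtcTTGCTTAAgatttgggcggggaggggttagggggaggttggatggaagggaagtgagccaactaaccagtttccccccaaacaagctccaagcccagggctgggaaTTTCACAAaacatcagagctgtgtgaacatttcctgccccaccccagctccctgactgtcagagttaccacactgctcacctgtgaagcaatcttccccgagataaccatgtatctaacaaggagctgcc
Cxcr2: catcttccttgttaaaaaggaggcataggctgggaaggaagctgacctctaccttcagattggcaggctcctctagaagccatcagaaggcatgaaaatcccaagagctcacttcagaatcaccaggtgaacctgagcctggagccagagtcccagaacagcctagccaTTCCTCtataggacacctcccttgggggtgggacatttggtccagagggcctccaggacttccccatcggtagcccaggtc
Ifitm6: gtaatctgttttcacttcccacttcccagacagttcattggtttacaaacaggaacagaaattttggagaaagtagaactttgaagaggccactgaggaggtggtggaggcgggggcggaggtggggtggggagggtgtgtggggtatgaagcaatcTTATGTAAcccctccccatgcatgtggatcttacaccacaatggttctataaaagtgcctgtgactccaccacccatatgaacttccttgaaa
The C/EBP letters occurred in the windows of 6 of the 7 genes, against 36.8% of 32851 mouse promoter windows of the same length, and Cxcr2 was the gene without them. The PU.1 letters occurred in 4 of the 7, S100a8, Mmp8, Cd177 and Cxcr2, against 23.3% of all windows. No match in these windows overlapped another, and a match is a run of letters and not a measured binding site.

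Depth ranged from 5105898 to 14800352 reads on the listed genes per tumor (median 6590274). Levels are given as normalized counts, which are reads divided by a tumor's size factor, and differences on the deposited log2-like scale, which flattens near 0 reads and so understates the change of low genes. S100a8 and S100a9 had over 10 reads in all 39 tumors and Cxcr2 in 38. Ifitm6 passed 10 reads in 15 of 19 4T1 and 20 of 20 66cl4 tumors. Retnlg, Mmp8 and Cd177 passed it in 19, 17 and 17 of the 19 4T1 tumors but in 5, 0 and 1 of the 20 66cl4 tumors, so their 66cl4 values rest on few reads. Every gene of the table had over 10 reads in at least 8 tumors, so Retnlg, Mmp8 and Cd177 entered it only through 4T1 tumors. A higher level in 4T1 was thus favoured in advance for them and is no independent result. A value of 0 reads occurred 4 times, all upon anti-PD-1 in 66cl4 tumors: Retnlg in tumor 4, Mmp8 in tumor 5 and Cd177 in tumors 2 and 5. A count of 0 allows up to 3 reads, or 2.84 to 3.75 normalized counts in these libraries, which covers counting error only.

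Per kilobase of exon, to compare genes of unequal length, the calprotectin pair was highest in 4T1 tumors, with medians over the 19 tumors of 701 normalized counts per kilobase for S100a9 and 539.7 for S100a8. Retnlg followed at 92.5, Ifitm6 at 26.1, Cxcr2 at 21.3, Mmp8 at 13.3 and Cd177 at 9.58. In 66cl4 tumors S100a9 (96.7) and Ifitm6 (96.5) were nearly level, followed by S100a8 (59.8), Retnlg (11.2), Cxcr2 (6.97), Cd177 (1.02) and Mmp8 (0.906). Ifitm6 thus held the second place in 66cl4 and the fourth in 4T1 tumors on this per-length scale.

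**Figure D1:**
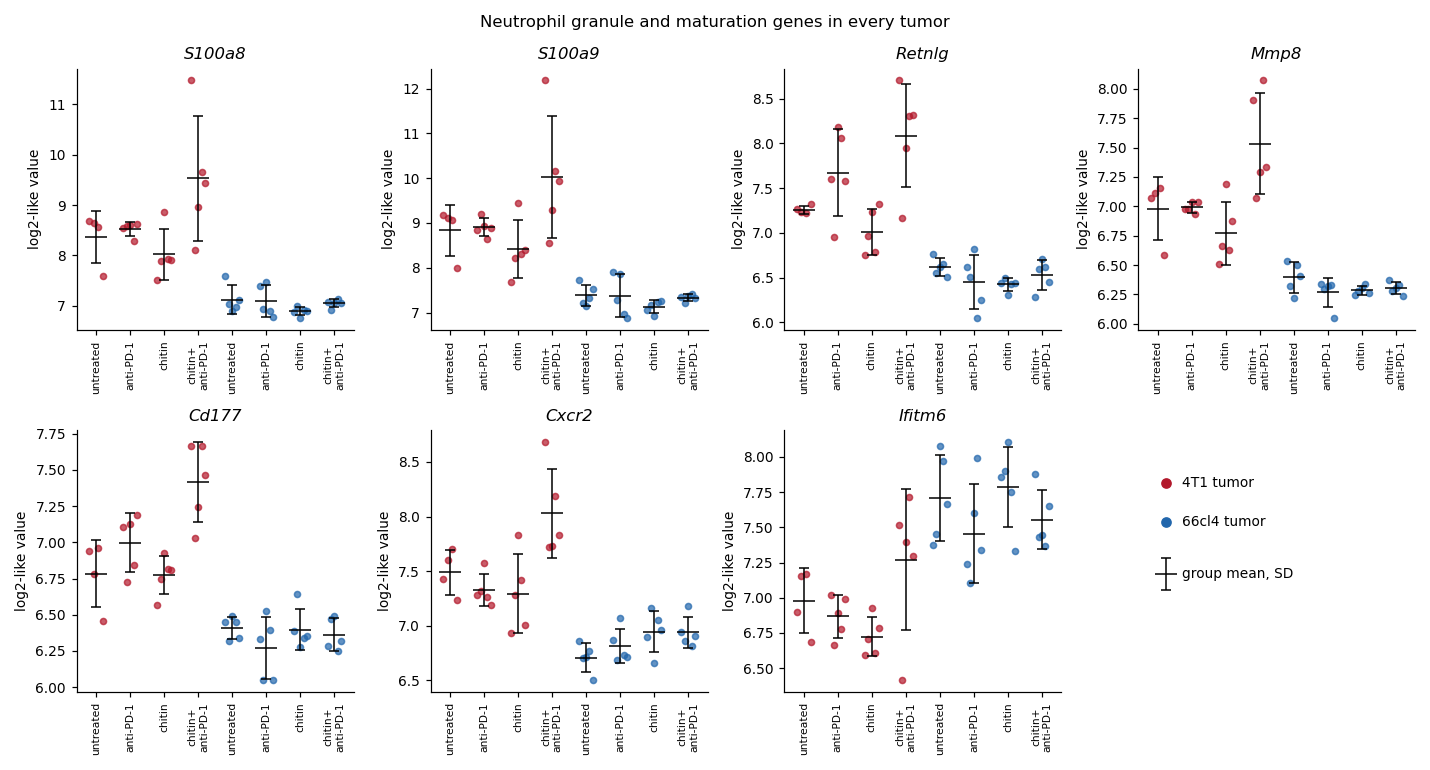
Each panel plots 1 gene, with the deposited log2-like value on the y axis (the scale differs between panels) and the 8 groups on the x axis, 4T1 in red and 66cl4 in blue, 1 point per tumor. Black marks give the group mean and SD, and the value at 0 reads is 6.05. The 4T1 chitin + anti-PD-1 group has the highest mean for S100a8, S100a9, Retnlg, Mmp8, Cd177 and Cxcr2, while for Ifitm6 the 4 groups of 66cl4 have the highest means.

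The first comparison set the 2 tumor models against each other. Of the 7 genes, 6 were higher in 4T1 tumors, S100a8, S100a9, Retnlg, Mmp8, Cd177 and Cxcr2, and Ifitm6 was lower. The models differ widely, since 40.8% of all genes tested were called higher in 4T1 and 38% higher in 66cl4 (limma, adjusted p under 0.05, mean of the 4 treatment groups), so that being called is common here. Median normalized counts over all tumors of a model were 262 against 29.1 for S100a8, 366 against 50.5 for S100a9, 54.8 against 6.65 for Retnlg, 32.2 against 2.2 for Mmp8, 26 against 2.76 for Cd177 and 65 against 21.2 for Cxcr2. These medians were 9.02, 7.25, 8.24, 14.7, 9.43 and 3.06 times those of 66cl4. For Retnlg, Mmp8 and Cd177 the filter on reads favoured this direction. Ifitm6, of the family of interferon-induced transmembrane proteins and found in marrow-derived cells, had a median of 23.6 in 4T1 against 87.3 in 66cl4 tumors, or 0.271 times. For none of the 7 genes did all 4T1 tumors lie on 1 side of all 66cl4 tumors, although 9.87% of all genes had every 4T1 tumor above every 66cl4 tumor. S100a8, S100a9 and Mmp8 came closest, with 18 of 19 4T1 tumors above the highest 66cl4 tumor.

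On the log2-like scale, the difference of 4T1 minus 66cl4 was 1.57 (SE 0.163) for S100a8 and 1.74 (SE 0.185) for S100a9. It was 1.01 (SE 0.0971) for Retnlg, 0.76 (SE 0.0663) for Mmp8, 0.63 (SE 0.0577) for Cd177 and 0.68 (SE 0.0747) for Cxcr2. Ifitm6 fell by 0.67 (SE 0.091). The adjusted p of the 7 lay between 1.76e-12 and 4.44e-08 (limma, Benjamini-Hochberg over all genes). With limma-voom on the reads recovered from the table, which does not flatten low counts, the 6 higher genes differed by 1.88 to 3.67 on the log2 scale and Ifitm6 by -1.74, all 7 again past the threshold.

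The untreated tumors alone gave levels free of treatment, while the SE and p of their comparison, given below, rest on the spread of all 39 tumors. S100a8 was 287, 279.9, 256 and 83.9 normalized counts in the 4 untreated 4T1 tumors and 83.9, 32.1, 22.9, 28.3 and 37.4 in the 5 untreated 66cl4 tumors. The lowest 4T1 tumor, tumor 5, was level with the highest 66cl4 tumor, and the other three stood well above. Mmp8, the neutrophil collagenase of the specific granules, was 34.3, 37.5, 41 and 9.17 in 4T1 and 7.51, 2.29, 0.879, 6.44 and 4 in 66cl4. Cxcr2, the receptor through which CXC chemokines draw neutrophils out of the marrow and into tissue, was 65, 84.4, 96.6 and 47.2 in 4T1 and 21.3, 13.8, 14.1, 16.7 and 6.67 in 66cl4, with no overlap. Ifitm6 was 23.6, 40.7, 41.9 and 13.1 in 4T1 and 60.1, 67.6, 153, 135 and 92.1 in 66cl4, so all untreated 4T1 tumors lay below all untreated 66cl4 tumors.

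S100a8, S100a9, Retnlg, Mmp8 and Cxcr2, 5 of the 7, had every untreated 4T1 tumor above every untreated 66cl4 tumor, as had 22.3% of all genes, and 1, Ifitm6, had every 4T1 tumor below, as had 20.7%. All 7 passed the threshold between untreated tumors (limma), 6 higher and 1 lower, where 28.7% of all genes were called higher and 27.1% lower in 4T1. The differences were 1.25 (SE 0.34, adjusted p = 0.00229) for S100a8, 1.45 (SE 0.387, adjusted p = 0.0019) for S100a9 and 0.78 (SE 0.156, adjusted p = 7.27e-05) for Cxcr2. They were 0.64 (SE 0.203, adjusted p = 0.00762) for Retnlg, 0.59 (SE 0.139, adjusted p = 0.000565) for Mmp8 and -0.73 (SE 0.19, adjusted p = 0.00151) for Ifitm6. For Cd177, a surface glycoprotein of neutrophils that is also stored in specific granules, the difference was 0.37 (SE 0.121, adjusted p = 0.00882), and after quantile normalization it was 0.25 with an adjusted p of 0.0827.

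Markers of other cells also differed between the models, where 40.8% of all genes were called higher in 4T1 and 38% lower. The 9 genes of a monocyte and macrophage list summed to 5445 to 29566 normalized counts in 4T1 and 23616 to 43144 in 66cl4 tumors, with 7 called lower and 1, Ly6c2, higher in 4T1. A list of 11 stratified squamous genes, a source of S100a8 and S100a9 outside of neutrophils, had 3 genes in the table, Krt5, Krt10 and Krt14, all called higher in 4T1, with sums of 136 to 9590 in 4T1 and 22.4 to 222 in 66cl4. The highest of these sums was in untreated 4T1 tumor 5, which had the lowest S100a8 and S100a9 of its group, and the other untreated 4T1 tumors summed to 136 to 248. Blood cell genes (5 of 8 listed) summed to 1062 to 12643 in 4T1 and 1227 to 16014 in 66cl4. The 5 genes of a mammary tumor epithelium list, Epcam, Krt8, Krt18, Krt19 and Cdh1, were all called higher in 4T1, with a median difference of 4.18 and sums of 14077 to 49944 against 3380 to 6091 normalized counts. Also higher in 4T1, like 6 of the 7 genes, were 5 of 5 skeletal muscle genes (median sum 528 against 14.9), 4 of 4 adipocyte genes (237 against 21.5), 3 of 3 listed genes of lactating epithelium (265 against 29.4), 4 of 6 listed T and B cell genes (422 against 134) and 1 of 5 listed mast cell and eosinophil genes (218 against 70.1), none called lower. The part of these cells in the differences was not tested.

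Other neutrophil genes, taken from 6 lists, moved in both directions between the models. Of 52 genes in these lists 42 were in the table, with 25 called higher and 10 lower in 4T1. Of all genes, 40.8% were called higher and 38% lower. The 42 had a median difference of 0.41 against 0.01 over all genes. The lists were drawn up with earlier results of these data known. Among the specific and gelatinase granule genes 10 of 11 were listed and 8 were called higher in 4T1, while Mmp9 (0.05, adjusted p = 0.881) and Adam8 (-0.32, adjusted p = 0.0919) did not pass the threshold (limma). Lcn2, the iron-siderophore binding lipocalin, had a median of 2327 normalized counts in 4T1 against 37.5 in 66cl4 (difference 3.96, SE 0.291). Hp, haptoglobin, had 819.98 against 66.5 (2.13, SE 0.393), Ltf, lactoferrin, 742 against 89.8 (1.53, SE 0.331), and Lcn2, Hp, Ltf and Slpi, of the list of mature neutrophil genes, are also made by epithelial cells. Epithelial genes of the tumor cells moved the same way, as given above, and their part in these differences was not tested. Ngp, neutrophilic granule protein, had 89.8 in 4T1 and a median of 0 in 66cl4 tumors, where its highest value was 1.29 normalized counts (1.54, SE 0.116). Ngp too entered the table only through 4T1 tumors, which favoured this direction.

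The azurophil granule and promyelocyte list had 2 of its 5 genes in the table, and they moved apart. Prtn3, proteinase 3, was higher in 4T1 (23.1 against 8.53 normalized counts at the median) and Ctsg, cathepsin G, lower (1.31 against 7.43). Of 23 genes of the mature neutrophil surface and of its signalling 19 were listed, with 12 called higher and 5 lower. Slpi, an inhibitor of neutrophil elastase, was 2.61 (SE 0.293) and Padi4, which citrullinates histones, 1.24 (SE 0.131) higher in 4T1 on the log2-like scale. Padi4 had medians of 2488 normalized counts in 4T1 and 853 in 66cl4, above those of S100a9 (366 and 50.5). The cells that gave the Padi4 reads were not tested. Fpr1, a receptor for formyl peptides, fell by 1.34 (SE 0.0816) and Clec4d, a C-type lectin of myeloid cells, fell by 1.19 (SE 0.117). Fpr1 thus joined Ifitm6 in being lower in 4T1, with 16.9 against 176 normalized counts at the median.

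Upstream of these genes, Csf3, which encodes G-CSF, had a median of 180.4 normalized counts in 4T1 against 0.747 in 66cl4 tumors (difference 2.18, SE 0.149). Its highest 66cl4 value was 2.85, so Csf3 also entered the table only through 4T1 tumors. The chemoattractant list had 5 of 6 genes in the table, 2 called higher and 2 lower, as Cxcl1 was 0.76 higher (SE 0.194) while Cxcl5 fell by 1.12 (SE 0.188) and Cxcl3 by 0.34 (SE 0.129) in 4T1. Tlr4, a receptor of calprotectin and the 1 of 2 receptors in the table, fell by 0.64 (SE 0.0469). Of the 5 granulopoiesis transcription factors 2 were called higher, Cebpe (0.22, SE 0.0606) and Gfi1 (0.16, SE 0.0505), and 1 lower, Spi1, which encodes PU.1 (-0.42, SE 0.087). Cebpa differed by -0.26 (SE 0.141) and was not called. After quantile normalization Cebpe and Gfi1 no longer passed the threshold. With 40.8% of all genes called higher and 38% lower, the counts of the chemoattractant and transcription factor lists are no finding.

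**Figure D2:**
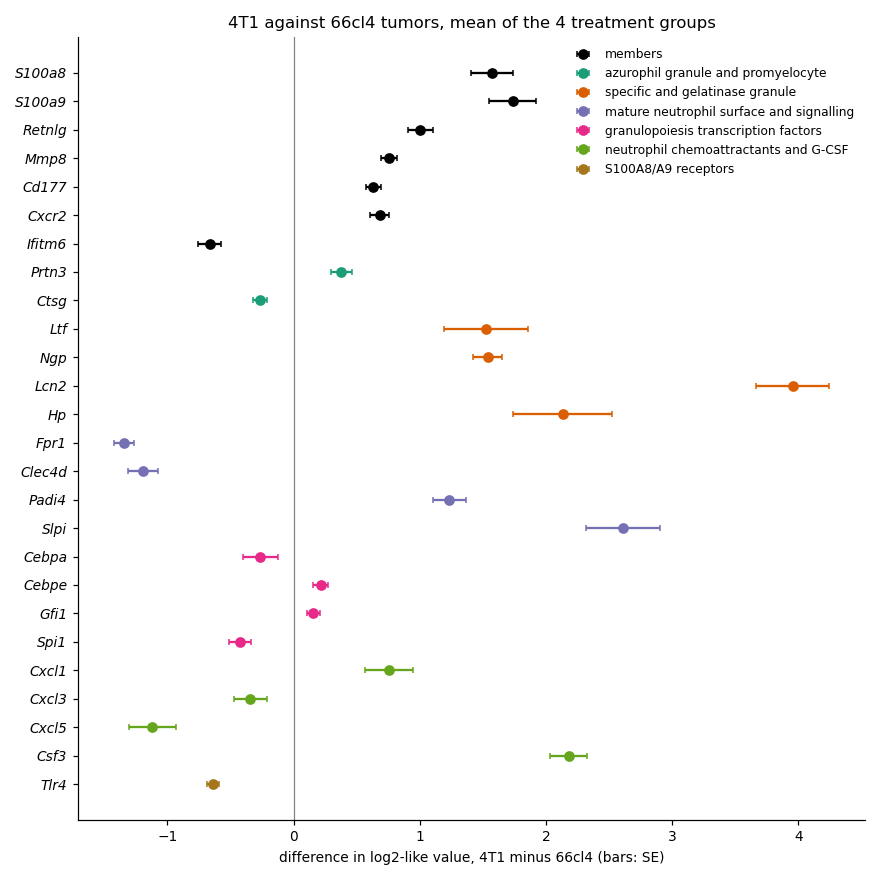
Points give the difference of 4T1 minus 66cl4 tumors in the log2-like value, averaged over the 4 treatment groups, with SE bars, for the 7 genes (black) and for up to 4 genes of each other neutrophil list (colors). Of the 7, only Ifitm6 (-0.67) lies left of 0, and the farthest gene to the right is Lcn2 (3.96).

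The treatment comparisons asked what chitin and anti-PD-1, alone and together, changed within each model. In 4T1 tumors the means of all 7 genes were highest upon chitin + anti-PD-1 among the 4 treatments, and all 7 means were lower upon chitin alone than in untreated tumors, but no gene of the table passed the threshold in any of these comparisons. S100a9 was 452, 432, 408 and 139 normalized counts in untreated 4T1 tumors, 339, 459, 366, 277 and 354 upon anti-PD-1, and 94.8, 181, 575, 196 and 216 upon chitin. It was 4516, 255, 499, 1012 and 858 upon chitin + anti-PD-1. Tumor 1 of the combination stood far above every other tumor, tumors 4 and 5 were above all tumors of the other 3 groups, and tumor 2 lay within the range of the chitin group.

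Retnlg, resistin-like gamma, a secreted protein of mature neutrophils, was 49.7, 46.9, 46.5 and 55 in untreated tumors and 84.8, 26.8, 173, 150.1 and 81.7 upon anti-PD-1. It was 16.1, 27.8, 47.4, 17.7 and 54.8 upon chitin and 295, 41.8, 133, 197 and 199 upon chitin + anti-PD-1. The untreated tumors differed little from each other, the anti-PD-1 group spread on both sides of them, and 4 of 5 combination tumors were above all chitin tumors. Cd177 was 26, 17.2, 27.3 and 5.24 in untreated tumors, 8.53, 15.7, 25.1, 18.9 and 18.7 upon chitin and 92.4, 31.7, 48, 91.9 and 68.8 upon the combination. It was the 1 gene of the 7 in which all combination tumors lay above all chitin tumors, a pattern shown by 0.251% of all genes. Cd177 and Cxcr2, 2 of the 7, had all combination tumors above all untreated tumors, as had 0.608% of all genes.

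Cxcr2 was 51.4, 54.9, 80.6, 49.5 and 43.5 upon anti-PD-1, 25.6, 50.9, 115, 64.5 and 29.9 upon chitin and 288, 99.5, 99.9, 173 and 114 upon chitin + anti-PD-1. A single chitin tumor, tumor 3, reached the range of the combination. Mmp8 was 6.64, 12, 43.4, 10.6 and 22.4 upon chitin and 125, 34.6, 51.8, 153 and 56 upon the combination, and Ifitm6 was 9.48, 13.9, 25.1, 10.1 and 17.5 upon chitin and 74.4, 4.32, 61.9, 98.4 and 52.5 upon the combination. Ifitm6 in combination tumor 2 rested on 3 reads and was the lowest 4T1 value of that gene, whereas the other 4 combination tumors were above all other 4T1 tumors.

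By chitin + anti-PD-1 against chitin, the difference in 4T1 tumors was 1.51 (SE 0.424) for S100a8, 1.61 (SE 0.476) for S100a9, 1.07 (SE 0.242) for Retnlg and 0.76 (SE 0.172) for Mmp8. It was 0.64 (SE 0.132) for Cd177, 0.73 (SE 0.182) for Cxcr2 and 0.54 (SE 0.176) for Ifitm6. The median normalized counts of the combination were 4.56, 4.38, 7.09, 4.65, 3.68, 2.25 and 4.46 times those of the chitin group, in the same order. The adjusted p was 0.9999 for each of the 7, and 0 of the 14318 genes, 0%, passed the threshold (limma), while 445 had an unadjusted p under 0.05 and limma-voom on recovered reads also called 0. All 7 were among the 248 genes (1.73% of all) that were higher with an unadjusted p under 0.05, and their ranks by that p were 1 for Cd177, 3 for Retnlg, 4 for Mmp8, 8 for Cxcr2, 19 for S100a8, 28 for S100a9 and 39 for Ifitm6. Since the set was assembled with such results known, these ranks describe it and support nothing.

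The call in this comparison depended on which tumors entered the fit. When both models shared 1 fit, 4 of the 7 genes passed the threshold, Retnlg, Mmp8 and Cd177 with an adjusted p of 0.0125 each and Cxcr2 with 0.0479, and without combination tumor 2 it was 2 of the 7, Retnlg and Ifitm6, each with 0.0472. Over all alternatives, the adjusted p ranged from 0.0125 to 1 for Cd177 and from 0.0939 to 1 for S100a8. Without combination tumor 1 the difference of S100a8 was 1.02 and that of S100a9 1.08, which are the lowest values obtained by leaving out any 1 tumor.

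Against untreated tumors, chitin + anti-PD-1 in 4T1 gave differences of 1.16 (SE 0.45) for S100a8, 1.19 (SE 0.505) for S100a9, 0.83 (SE 0.256) for Retnlg, 0.55 (SE 0.182) for Mmp8, 0.63 (SE 0.14) for Cd177, 0.54 (SE 0.193) for Cxcr2 and 0.29 (SE 0.187) for Ifitm6. All adjusted p were 1 (limma). Of all genes, 0% were called, 367 had an unadjusted p under 0.05, and 1.42% were higher with such a p, among them 6 of the 7 genes, all but Ifitm6. With both models in 1 fit Cd177 passed the threshold with an adjusted p of 0.0429, and over all alternatives its adjusted p ranged from 0.0429 to 1. Without combination tumor 1 the S100a8 and S100a9 differences were 0.67 and 0.65.

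Chitin alone against untreated 4T1 tumors gave differences of -0.35 (SE 0.45) for S100a8, -0.42 (SE 0.505) for S100a9, -0.25 (SE 0.256) for Retnlg, -0.21 (SE 0.182) for Mmp8, -0.01 (SE 0.14) for Cd177, -0.2 (SE 0.193) for Cxcr2 and -0.25 (SE 0.187) for Ifitm6. None passed the threshold, all adjusted p were 1 (limma), 0% of genes were called and 397 had an unadjusted p under 0.05. Leaving out 1 tumor moved the S100a8 difference to between -0.61 (without untreated tumor 5) and -0.22 (without chitin tumor 1) and that of S100a9 to between -0.71 and -0.24 (without the same tumors). The sign for Cd177 turned under 3 other processing choices and without any 1 of 3 tumors. Anti-PD-1 alone against untreated gave 0.41 (SE 0.256, adjusted p = 0.635) for Retnlg and -0.17 (SE 0.193, adjusted p = 0.806) for Cxcr2, the most positive and the most negative differences of the 7, with 0% of genes called and 1273 at an unadjusted p under 0.05. The 2 chitin-containing groups together against the other 2 gave 0.35 (SE 0.347) for S100a9, 0.25 (SE 0.133) for Cxcr2 and 0.2 (SE 0.0959, adjusted p = 0.685) for Cd177, again with 0% called and 1042 genes at an unadjusted p under 0.05. Without combination tumor 1 the S100a9 value of this comparison was 0.08. These comparisons share their untreated or chitin tumors, so their values are not independent of each other.

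**Figure D3:**
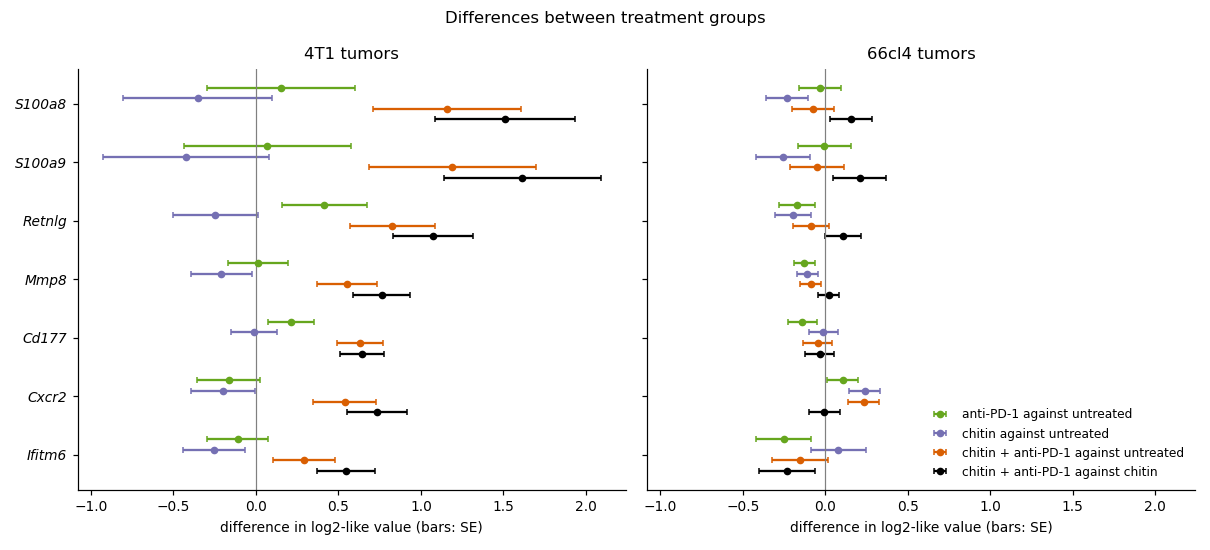
Points give the difference between treatment groups in the log2-like value with SE bars, for each of the 7 genes (rows), in 4T1 (left) and 66cl4 tumors (right). In 4T1 tumors the differences of chitin + anti-PD-1 against chitin (black) lie between 0.54 and 1.61, while those in 66cl4 tumors lie between -0.23 and 0.21.

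Among the 4T1 combination tumors, other markers varied as well, in tumor 1 and in others. In tumor 1 the chemoattractant and G-CSF list summed to 4755 normalized counts, against 271 to 603 in the other 4 combination tumors and 242 to 616 upon chitin. The monocyte and macrophage list of tumor 1 summed to 5445, the lowest of all 4T1 tumors. Blood cell genes summed to 1343 in tumor 1 and to 2116 to 12643 in the other combination tumors, against 1062 to 2251 upon chitin. The highest of these sums were in tumor 4 (8549) and tumor 5 (12643). Of the 5 listed blood genes, 4 were higher upon the combination and 1 lower (limma, median difference 0.44, 3 with an unadjusted p under 0.05). All 5 skeletal muscle genes were higher (median difference 0.79), while 4 of 6 listed T and B cell genes were lower (median difference -0.15). Squamous genes summed to 517 to 1181 upon the combination and 323 to 1770 upon chitin. Their part in the differences was not tested. The 42 other neutrophil genes had a median difference of 0.41 between the combination and chitin, where the median of all genes was below 0.01. Of the 42, 39 were higher and 3 lower, where 51.8% of all genes were higher, and 0 were called. Their lists were drawn up with earlier results of these data known, so these counts are no independent support.

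In 66cl4 tumors the SD over all treatments was smaller than in 4T1 for each of the 7 genes on the log2-like scale. That scale flattens low counts, and in normalized counts Ifitm6 had the larger SD in 66cl4, 37.4 against 24.9 in 4T1. S100a9 was 98.9, 45.9, 39.6, 55.4 and 74.7 normalized counts in untreated 66cl4 tumors, 127, 51.1, 118, 27.5 and 22.7 upon anti-PD-1, 33.1, 41.1, 24.7, 47.8 and 49.8 upon chitin and 58, 45.6, 58.6, 63.9 and 55 upon the combination. The groups overlapped, and the anti-PD-1 group alone spread to both ends. Cxcr2 was 21.3, 13.8, 14.1, 16.7 and 6.67 in untreated tumors, 23.6, 41.1, 12.1, 33.4 and 27 upon chitin and 26, 21.2, 42.7, 19.2 and 24.1 upon chitin + anti-PD-1. In 4 of 5 chitin tumors and 3 of 5 combination tumors it was above all untreated tumors.

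The Cxcr2 difference in 66cl4 was 0.24 (SE 0.0938, adjusted p = 0.331) for chitin against untreated, 0.23 (SE 0.0938, adjusted p = 0.394) for the combination against untreated and 0.18 (SE 0.0663, adjusted p = 0.202) when both groups given chitin were set against the remaining 2, none past the threshold. S100a9 was lower in the chitin-containing groups by a difference of -0.15 (SE 0.114, adjusted p = 0.553) and S100a8 by -0.14 (SE 0.09, adjusted p = 0.482). For Retnlg all 5 chitin tumors lay below all untreated tumors, 2.1 to 6.44 against 6.67 to 16.3 normalized counts, as did 0.698% of all genes, on 4 to 8 and 5 to 13 reads. The chitin libraries were the deeper ones, with 6183436 to 14800352 reads against 5732583 to 8408913 in untreated 66cl4 tumors, and the part of depth was not tested. Upon chitin against untreated 66cl4, all 5 listed blood cell genes were lower (median difference -0.5, 1 with an unadjusted p under 0.05), with sums of 1418 to 2670 against 1731 to 13819. All 9 monocyte and macrophage genes were higher (median difference 0.36, 6 with an unadjusted p under 0.05), with sums of 35148 to 39653 against 23616 to 33968, and 35555 to 43144 upon the combination. None of these genes was called, and their part in the Retnlg and Cxcr2 values was not tested. Anti-PD-1 alone gave -0.25 (SE 0.168, adjusted p = 0.911) for Ifitm6 and -0.17 (SE 0.108, adjusted p = 0.911) for Retnlg, and the combination against chitin gave -0.23 (SE 0.168, adjusted p = 1) for Ifitm6.

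In each of the 5 comparisons within 66cl4 tumors 0% of genes and 0 of the 7 were called by limma, and limma-voom on recovered reads called 0 as well. The genes with an unadjusted p under 0.05 numbered 2238 for the groups given chitin against those without it, 767 for anti-PD-1, 1639 for chitin and 1516 for the combination against untreated, and 440 for the combination against chitin. Whether the chitin-containing groups differed from the others by another amount in 4T1 than in 66cl4 tumors was tested itself. This called 0.0978% of all genes (14 of 14318) and 0 of the 7, of which S100a9 had the largest estimate (0.5, SE 0.37, adjusted p = 0.609), and their adjusted p ranged from 0.554 to 0.982 (limma). Without combination tumor 1 of 4T1 the S100a9 estimate was 0.23.

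Ordered by mean log2-like value over the 8 groups, S100a8, S100a9, Retnlg, Mmp8, Cd177 and Cxcr2 had all 4 groups of 4T1 above all 4 groups of 66cl4, and Ifitm6 had the reverse. Of the 49 steps between neighbours in these orders, 10 were wider than the larger SD of the 2 groups, and in 3 the tumors did not overlap. The step from the lowest 4T1 group, chitin, to the highest 66cl4 group, untreated, was among the 10 for S100a8, S100a9, Retnlg, Mmp8 and Cd177, and without overlap for Cd177. The step from the 4T1 combination to the next group was among them for Mmp8, Cd177 and Cxcr2, without overlap for Mmp8 and Cxcr2. All other neighbours, and every pair in the order of Ifitm6, differed by less than their spread, apart from the last step within 66cl4 for S100a8 and S100a9.

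Across tumors of 1 model the genes varied together in 4T1 and less so in 66cl4. Over the 19 4T1 tumors all 21 pairs had a positive Pearson r, from 0.653 to 0.995 with a median of 0.822. All 21 passed the threshold (permutation test with 100000 resamples, adjusted over 42 pairs). The genes were chosen as a set on values of these same tumors. Passes in either model therefore describe the set and are no independent support for shared variation. S100a8 and S100a9 had r = 0.995 and Spearman's rho = 0.968, with a permutation p of 1e-05 each, the smallest that these resamples give (adjusted p = 4.2e-05 for r and 8.4e-05 for rho), and r = 0.984 without the 2 tumors farthest from the median of S100a8. Retnlg and Cxcr2 were the least alike, with r = 0.653 (adjusted permutation p = 0.00383), rho = 0.407 (adjusted permutation p = 0.125) and r = 0.433 without 2 tumors. Ifitm6 took part, with r from 0.712 to 0.86 to the other 6 in 4T1. Differences between treatment groups also enter r over all 19 tumors. Using deviations from the treatment group means, the median r of the 21 pairs was 0.712 and the lowest 0.475, and these values were not tested.

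Over the 20 66cl4 tumors r ranged from -0.42 to 0.92 with a median of 0.306, and 6 of the 21 pairs passed the threshold. S100a8 and S100a9 again had the highest, r = 0.92 and rho = 0.92 (permutation p = 1e-05 each) and r = 0.935 without 2 tumors. S100a9 and Retnlg followed with r = 0.702 (adjusted permutation p = 0.00112, rho = 0.662 with adjusted permutation p = 0.00474, 0.678 without 2 tumors). Ifitm6 had r between -0.42 and 0.422 to the others, none past the threshold, with its lowest value to S100a9 (rho = -0.415). In 66cl4, Mmp8, Cd177 and Retnlg hold 0 to 20 reads per tumor, and a weak r at such counts is no finding.

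**Figure D4:**
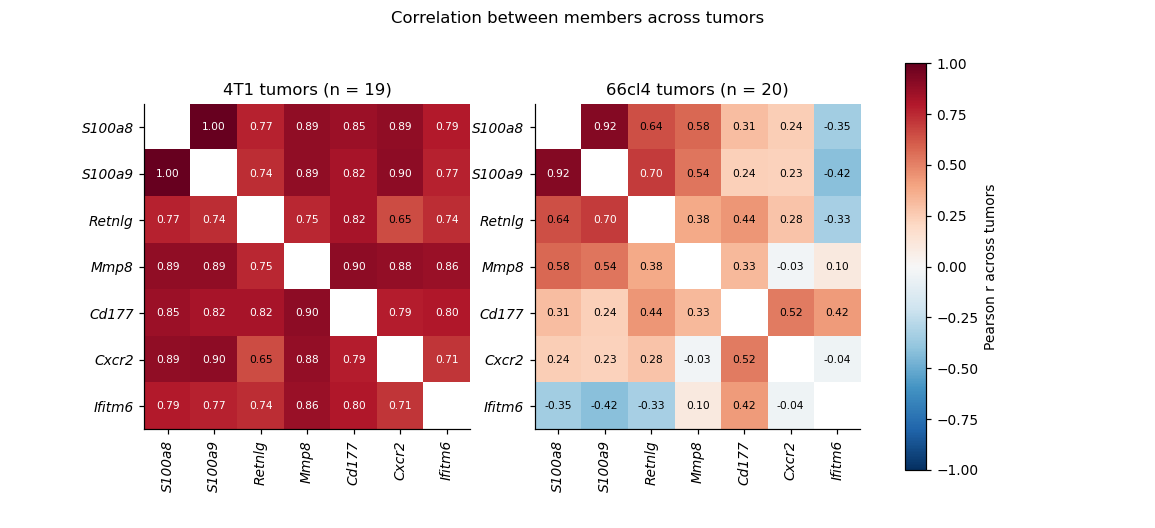
Each square gives Pearson's r between 2 of the 7 genes across the tumors of 1 model, 4T1 on the left (n = 19) and 66cl4 on the right (n = 20), from blue (-1) to red (1). All squares of 4T1 are red, from 0.653 to 0.995, whereas in 66cl4 the row of Ifitm6 runs from -0.42 to 0.422.

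**Figure D5:**
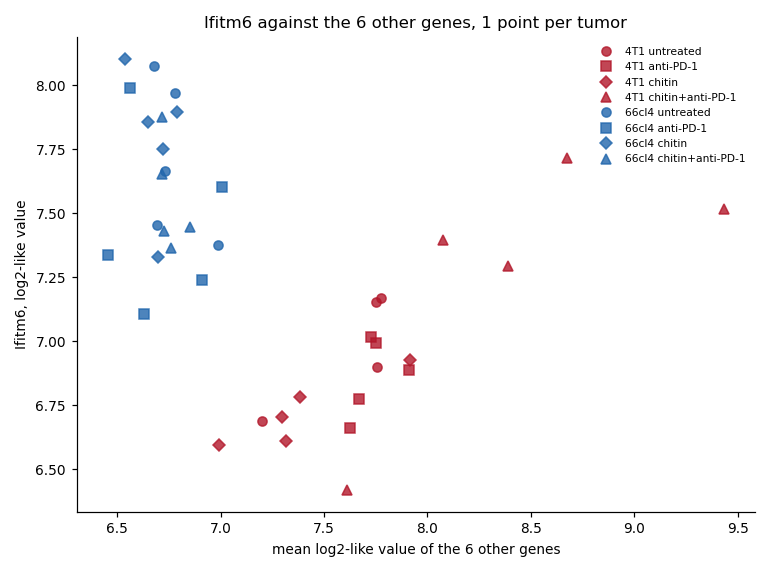
Each point is 1 tumor, with the mean log2-like value of the 6 other genes on the x axis and that of Ifitm6 on the y axis, 4T1 in red, 66cl4 in blue, and a marker shape for each treatment. The 66cl4 tumors lie to the upper left, with Ifitm6 values from 7.1 to 8.1, and the 4T1 tumors spread from lower left to upper right, with Ifitm6 values from 6.42 to 7.72.

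By likeness to the mean of the 7 genes, over the 19 4T1 tumors, the closest other genes were Stfa2l1 (r = 0.879), Cstdc4 (0.869), Slc2a3 (0.846), Mirt2 (0.843), Slfn4 (0.837), Stfa2 (0.81), Cass4 (0.779), Hdc (0.77), Osm (0.766) and Clec4e (0.757). Stfa2l1, Stfa2 and Cstdc4 are stefin A family members, cysteine protease inhibitors of near-identical sequence whose reads may be split between copies, so their own levels are uncertain. Stfa2l1, Stfa2, Hdc, which makes histamine, and Clec4e, a C-type lectin, were on the list of mature neutrophil genes. Slc2a3 is a glucose transporter, Osm the cytokine oncostatin M and Slfn4 a Schlafen family gene of myeloid cells. Without the 2 tumors farthest from the median, r fell for Stfa2 to 0.422 and stayed at 0.555 or more for the other 9. Over the 20 66cl4 tumors the 10 closest were Clec11a (0.835), Ddx52 (0.781), Sfxn1 (0.769), Cct4 (0.759), Tcp1 (0.759), Cct2 (0.738), Gnl3 (0.73), Asnsd1 (0.726), Cstf2 (0.718) and Wdr77 (0.708). Of these, Cct4, Tcp1 and Cct2 encode subunits of the chaperonin that folds actin and tubulin, and none of the 10 was on a neutrophil list. The 2 models shared none of their 10 genes. How many of 14318 genes would be shared by chance was not computed, so this is no finding. In 66cl4 the mean of the 7 genes also holds Retnlg, Mmp8 and Cd177 at 0 to 20 reads. It includes Ifitm6 as well, whose r to S100a9 there was -0.42.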

How the data were processed

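The authors prepared stranded libraries from 250 ng of total RNA per tumor, aligned the reads with HISAT2 to mm10, counted them per gene by strand, kept genes with more than 10 counts in at least 10% of the tumors, and deposited DESeq2 variance-stabilized, log2-like values. The annotation used and tool versions are not given in the sources used here. From the deposited log2 values, with a shared lowest value of 6.05 at 0 reads, reads and size factors were recovered, since 100% of values came out whole within 0.001 reads. Groups came from the sample labels, and no batch is given there. Groups were tested by limma 3.58.1 under R 4.3.3 (linear model of group means, empirical Bayes with a mean-variance trend, two-sided, Benjamini-Hochberg over 14318 genes, threshold 0.05), with all 8 groups in the fit for comparisons between models and the 4 groups of a model for those within it. P-values measure the spread between these tumors. Permutation tests of correlations were two-sided. Code was tested on simulated data. Exon lengths came from GENCODE vM21 and coordinates and promoters from RefSeq.

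The 7 genes and all lists were chosen with earlier results of these data known. From each neutrophil list up to 4 genes were named by the size of the 4T1 against 66cl4 difference, ties by the chitin difference in 4T1, plus in each model the 10 genes most like the mean of the 7. Alternatives were a filter on low means, no trend, fewer or more groups in the fit, median centring, quantile normalization, tumor weights, a replicate block, log2(normalized count + 1), limma-voom on recovered reads, and leaving out each tumor. Fold changes on the log2-like scale understate those of low genes. The same tumor numbers recur in the groups, and deviations from the group means gave r from -0.392 to 0.539 between tumors of the same number. Tumors of unlike number were not set beside them, so these values do not decide whether the numbers pair tumors. The tumors were not paired in the fits reported.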

Additional observations from a re-analysis of the deposited data

Results flagged for a closer look

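In 5 of 56 combinations of gene and group, 1 tumor stood apart from the rest of its group by a Dixon test, of which chance alone flags about 1 in 20. Untreated 4T1 tumor 5 was the lowest of its 4 tumors for 3 genes, with log2-like values of 7.60 for S100a8 (others 8.56 to 8.68), 7.99 for S100a9 (others 9.06 to 9.17) and 6.58 for Mmp8 (others 7.07 to 7.16). It is also the tumor with the highest sum of squamous genes, 9590 normalized counts. Upon anti-PD-1, 4T1 tumor 4 was the lowest for S100a8 at 8.28 (others 8.54 to 8.61). Upon anti-PD-1, 66cl4 tumor 5 was the lowest for Mmp8 at 6.05, the value of 0 reads (others 6.29 to 6.33).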

How the results depend on the processing

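A tally of single differences covered part of them. In it 2531 comparisons with an alternative kept direction and side of the threshold, 6 reversed, 8 newly passed it and 3 no longer passed it. Of the counts 432 stayed within 1.5 times and 5 moved. Outside this tally other signs turned too. When 1 tumor was left out, 4T1 anti-PD-1 against untreated ranged from -0.11 to 0.25 for S100a8. It ranged from -0.21 to 0.18 for S100a9 and from -0.12 to 0.07 for Mmp8. In 66cl4 the same comparison ranged from -0.12 to 0.09 for S100a8. Without the 25% of genes with the lowest mean, 2 of the 7 genes passed in both comparisons between models, S100a8 and S100a9, because the other 5 were no longer tested. With both models in 1 fit, 1 of the 7 passed for 4T1 chitin + anti-PD-1 against untreated and 4 against chitin, which in that fit share the spread of 66cl4 tumors. Leaving out 1 tumor each, 0 to 2 of the 7 passed for chitin + anti-PD-1 against chitin, the 2 being Retnlg (1.30) and Ifitm6 (0.76) without combination tumor 2. Cd177 for 4T1 chitin against untreated (-0.01) turned to 0.00733 with median centring, 0.0169 with tumor weights, 0.0258 on log2(normalized count + 1), and ranged from -0.12 to 0.05 leaving out 1 tumor each (0.0399 without untreated tumor 1, 0.0471 without untreated tumor 4 and 0.0393 without chitin tumor 1); the cause was not tested. After quantile normalization Cd177 between untreated models (0.25), Cebpe (0.09) and Gfi1 (0.02) no longer passed, and without 4T1 anti-PD-1 tumor 1 Cebpa (-0.31) passed; the cause was not tested. Whether tumor numbers pair the tumors was not settled. With a replicate block the S100a8 difference of 4T1 chitin + anti-PD-1 against chitin was 1.51, and 0 of the 7 passed within models, as without it. No block was run between models, because the planned block is nested in the model. Few reads on the genes limit Retnlg, Mmp8 and Cd177 in 66cl4 tumors. The 66cl4 libraries held 5732583 to 14800352 reads on the listed genes, against 5105898 to 13156621 in 4T1.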
